A study of Mus musculus with 12 samples.

Results

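The solute carriers described here were the 194 genes whose symbol begins with Slc, a family number and a letter in the table of log2 expression values that the authors deposited, out of 11921 genes in that table and 38924 gene identifiers that were counted. Within that table, which the authors had filtered, the rule used the symbol alone. All 194 passed the filter on low counts and were tested, and 186 of them had at least 10 reads in every library. A further 183 identifiers with such a symbol lay outside the table, of which 153 had under 10 reads in every library. The iron exporter Slc40a1, from the list drawn up by role in T cells, was among these and is not described further. Members were sorted into substrate classes by family number. The classes were mitochondrial carriers (38 genes), ions (28), amino acids (27), metals (22), nucleotide sugars (22), organic ions and others (13), sugars (12), vitamins and cofactors (10), lipids and choline (7), monocarboxylates (5), nucleosides (4) and peptides (3). Slc9a3r1, Slc4a1ap and Slc7a6os are named after a carrier without being carriers and were set apart once the files had been opened.

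Solute carriers are membrane proteins that move nutrients, ions and metabolites across the plasma membrane and the membranes of organelles, by facilitated diffusion, by exchange or together with an ion. In activated T cells the glucose carriers, the large neutral amino acid carrier Slc7a5 with its partner chain Slc3a2, and the glutamine carrier Slc1a5 are known to feed growth, and lactate leaves through monocarboxylate carriers. The SLC25 family lies in the inner mitochondrial membrane and exchanges ADP for ATP, phosphate, citrate and amino acids with the matrix.

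RNA-seq was performed on T cells, described in the labels as CD4+ T cells from the spleen of C57BL/6 mice, in 4 groups of 3 libraries. T cells of wild-type (WT) mice and of mice with a defective STING gene (STINGgt/gt, the Goldenticket allele, given as a knockout in the labels) were each treated for 16 h with the solvent DMSO or with 10-carboxymethyl-9-acridanone (CMA), a cell-permeable STING agonist. According to the study's methods the cells of all groups were naive T cells that had been expanded with antibodies to CD3 and CD28 and then rested without them, and mice were young adults of the same sex within an experiment. The study calls the libraries biological replicates, but the labels do not say whether those of a group came from separate animals, so p-values measure the spread between these libraries. Exons of 50 members overlap those of a gene on the opposite strand in GENCODE M21 and those of 11 a gene on the same strand, and their counts are uncertain to that extent. Among the genes with values below these include Slc1a1, Slc2a1, Slc11a2, Slc15a3, Slc15a4, Slc16a6, Slc20a1, Slc25a33, Slc26a10, Slc29a1, Slc30a1, Slc44a1, Slc6a9, Slc35a1, Slc7a2, Slc7a4 and Slc7a10 (opposite strand) and Slc5a3 (same strand). Between 27414450 and 43784910 reads were assigned to genes per library. Levels are given as CPM, read counts scaled to a common library size with TMM factors, and a change is the log2 ratio fitted with edgeR, with its standard error (SE) and a p-value adjusted over the 13811 genes tested. A member was called higher or lower when the adjusted p-value was under 0.05.

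Tmem173, which encodes STING, had 184, 190.3 and 183 CPM in WT with DMSO, 296, 304 and 316 CPM in WT with CMA, and 168 to 184 CPM in the 6 STINGgt/gt libraries. The Goldenticket allele is a missense change, so this level does not check the genotype. The 6 T-cell markers, each detected, summed to 2245 to 2331 CPM in WT with DMSO, 2057 to 2120 CPM in WT with CMA, where 4 of them fell and 1 rose, and 2377 to 2453 CPM in the STINGgt/gt libraries. Markers of other cells were present at different levels in the groups. The 6 B-cell markers summed to 881 to 962 CPM in WT with DMSO, 1262 to 1386 CPM in WT with CMA and 444 to 477 CPM in the STINGgt/gt libraries. The 6 markers of CD8 T and natural killer cells summed to 2007 to 2465, 1474 to 1567 and 692 to 936 CPM in the same order. Gzmb, which activated CD4+ T cells also express, made up most of this sum, and without it the other 5 markers summed to 114 to 131, 54.7 to 59.6 and 53.6 to 60.7 CPM. The 7 myeloid markers summed to at most 74.8 CPM and the 6 erythroid markers to at most 3.12 CPM, both highest in WT with CMA. The myeloid sum was led by Cst3, with means of 38.6 CPM in WT with DMSO and 55.7 CPM in WT with CMA. Lyz2, Itgam and Fcer1g were called lower with CMA in WT, and no myeloid marker but Cst3 was called higher. In bulk RNA, fewer cells of a type and less RNA per cell cannot be told apart.

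With CMA, 64 members rose and 92 fell in WT T cells, while 38 passed the test in neither direction. This was 80.4% of members, beside 70.4% of all genes tested and 75.1% of the genes of the deposited table. Most changes were small, since 12 members rose and 23 fell at least 2-fold (9.32% and 7.68% of all genes did), and the median change over members was -0.07 on the log2 scale against -0.04 over all genes tested. Members called lower made up 47.4% and those called higher 33.0%, beside 37.4% and 33.0% of all genes. The counts by class below are to be read beside these shares of all genes. In STINGgt/gt T cells 1 member rose and 0 fell, which is 0.515% of members against 1.32% of all genes and 1.51% of those of the deposited table. Summed over all members, the level went from 12643 ± 63.7 CPM (SD, n = 3) with DMSO to 10922 ± 48.6 CPM with CMA in WT, and from 12378 ± 155 to 12215 ± 18.3 CPM in STINGgt/gt. The falls of Slc2a3, Slc25a5, Slc7a5 and Slc39a10 made up most of the fall of this sum in WT.

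**Figure D1:**
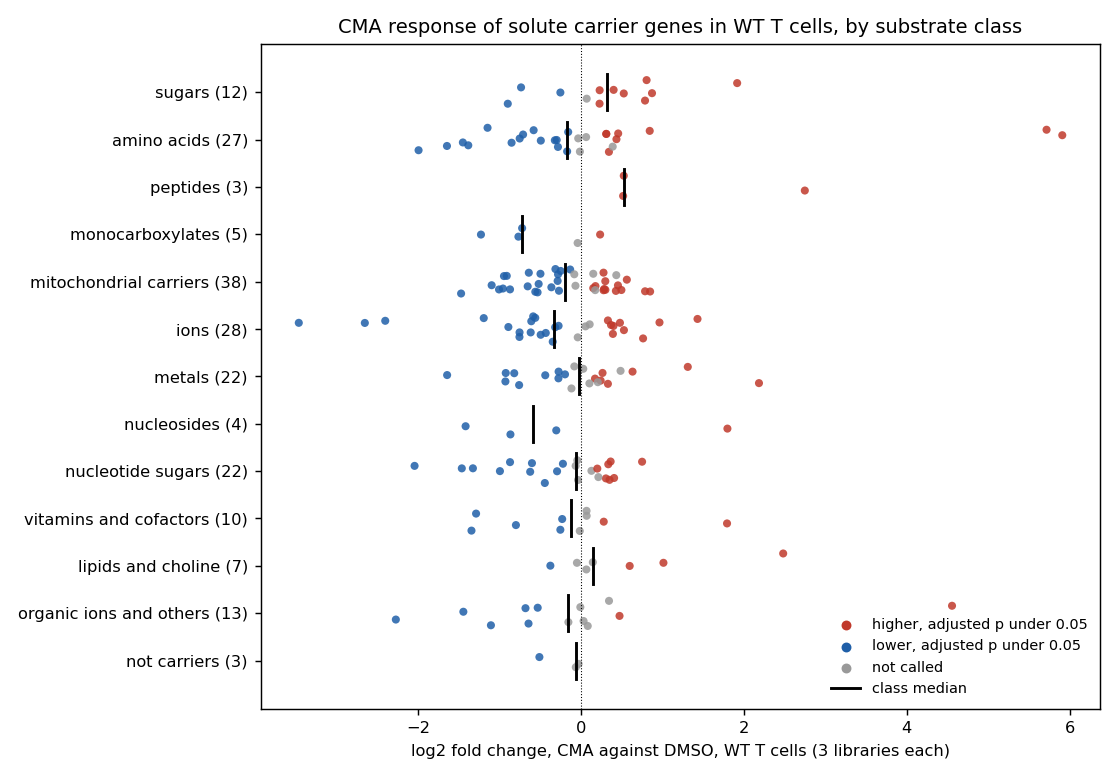
Each point is a solute carrier gene, placed by its log2 fold change with CMA against DMSO in WT T cells (horizontal axis) and by substrate class (vertical axis, number of genes in brackets, points spread vertically for legibility). Red and blue points were called higher and lower by edgeR, grey points were not called, and the black bar is the class median. Changes ran from -3.47 (Slc9b2) to 5.91 (Slc1a1), and points lay on both sides of 0 in every class but the peptides and the genes that are not carriers.

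Class totals did not move alike. The amino acid class went from 2499.9 ± 16.3 to 2119.6 ± 10.7 CPM with CMA in WT and the mitochondrial class from 2599.9 ± 26.6 to 2101 ± 22.7 CPM. Slc7a5 and Slc1a5 carried the fall of the amino acid class, and Slc25a5 and Slc25a3 most of that of the mitochondrial class. These totals therefore do not describe the other members. The 12 sugar carriers went from 2387 ± 38 to 1727 ± 77.1 CPM, a total that Slc2a3 dominated. The fall of Slc2a3 exceeded that of the class, and the other sugar carriers together were higher with CMA in WT. Totals of peptide, vitamin, lipid, nucleoside and organic ion carriers were higher with CMA. The peptide class went from 45.6 ± 2.12 to 129 ± 8.16 CPM, the vitamin class from 240.0 ± 1.94 to 294 ± 10.9 CPM, and the lipid and choline class from 379.7 ± 11.8 to 442 ± 4.07 CPM. Nucleoside carriers went from 172 ± 2.87 to 189 ± 5.54 CPM and the class of organic ions and others from 415 ± 8.56 to 465 ± 9.46 CPM. In 4 of these classes a single gene carried the rise, and the remaining members together were lower. Vitamin carriers without Slc23a2 went from 200.1 to 155 CPM, lipid and choline carriers without Slc44a1 from 357 to 317 CPM, nucleoside carriers without Slc29a3 from 138 to 68.3 CPM, and organic ions and others without Slc6a6 from 141 to 85.7 CPM. Ion carriers had 921 ± 15.3 and 910.4 ± 13.9 CPM, a difference within the spread of the libraries. Some totals also moved with CMA in STINGgt/gt. There the nucleoside total went from 235 ± 5.28 to 262 ± 3.03 CPM and the sugar total from 2131 ± 99.3 to 1887 ± 69.8 CPM, each without overlap.

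**Figure D2:**
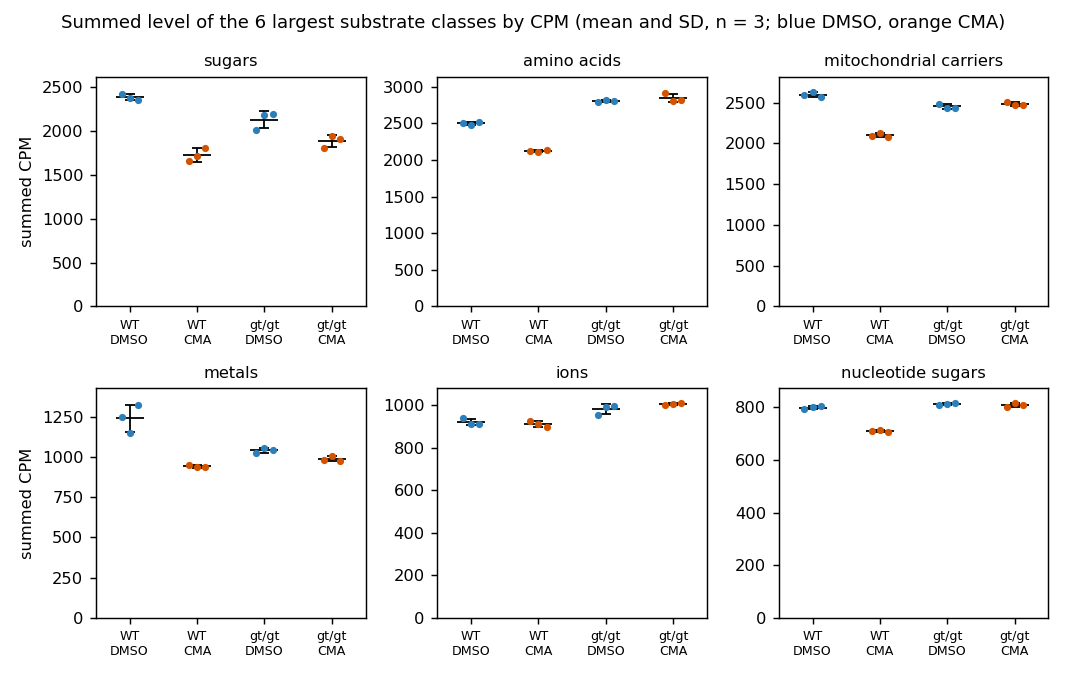
Summed CPM of the members of 6 substrate classes (vertical axis) in each of the 4 groups, with each library as a point and the mean and SD (n = 3) in black. For sugars, amino acids, mitochondrial carriers, metals and nucleotide sugars the 3 WT libraries with CMA lay below the 3 WT libraries with DMSO, while for ions the 2 groups overlapped. The lower sugar total in WT was due to Slc2a3, without which the other sugar carriers together were higher with CMA.

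Levels per kilobase of exon use the length of all annotated exons of a gene. That length can exceed the expressed transcript, so ranks between genes are approximate. On this scale the most abundant member in WT T cells with DMSO was Slc25a5, the ADP/ATP carrier of proliferating cells, at 397 CPM per kilobase. It was followed by Slc2a3 (222), Slc7a5 (134), Slc2a1 (131), Slc16a3 (88.2), Slc25a3 (87.5), Slc3a2 (86.5) and Slc1a5 (72.4). With CMA the level per kilobase was 204 for Slc25a5, 119 for Slc2a3 and 60.5 for Slc7a5. Of these 8 genes, 7 fell with CMA in WT and Slc16a3 rose. Slc25a5 has a processed pseudogene in the GENCODE M21 annotation, and reads that aligned to several places were not counted, so its level carries that uncertainty.

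Promoter sequences were read for the members that the results below turn on, to show what lies next to genes that rose and fell. RefSeq (GRCm38.p6) windows of 250 bases ahead of an annotated start site were matched for 147 of the 194 members. They were searched on both strands for TGATGNAA, a C/EBP-ATF response element bound by ATF4, for GAAA followed by any 2 bases and GAAA, the core of an interferon-stimulated response element, and for CACGTG, the E-box bound by MYC and related factors. None of the 3 strings contains another, and a gene was counted once per motif. TGATGNAA stood in 5 members (3.40%) beside 3.91% of all 27025 genes with a window and 2.47% of those of the deposited table. The interferon-stimulated element stood in 3 members (2.04%) beside 3.46% and 3.28%. CACGTG stood in 23 members (15.6%) beside 6.86% and 10.0%. By response in WT, CACGTG was held by 8 of 52 members that rose, 10 of 68 that fell and 5 of 27 that were not called, and TGATGNAA by 0, 4 and 1 of them. A match is a description of letters and does not show binding.

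Shown are 3 members that fell and hold a motif (Slc7a11 on chr3, Slc16a1 on chr3 and Slc25a33 on chr4), 1 member that rose and holds the E-box at 2 places (Slc35a5 on chr16), and 2 of the members with large rises, whose windows hold none of the 3 motifs (Slc1a1 on chr19 and Slc29a3 on chr10). Capitals mark the motif as it reads on the strand of the gene. In Slc7a11 the motifs begin 66 and 47 bases ahead of the start site, the second in reverse orientation. In Slc16a1 the E-box begins 200 bases ahead of the start site, in Slc25a33 8 bases ahead and in Slc35a5 90 and 67 bases ahead. The windows lie at chr3:50443614-50443863 (minus strand), chr3:104638414-104638663 (plus), chr4:149774268-149774517 (minus), chr16:45158674-45158923 (minus), chr19:28834885-28835134 (plus) and chr10:60752783-60753032 (minus).
Slc7a11: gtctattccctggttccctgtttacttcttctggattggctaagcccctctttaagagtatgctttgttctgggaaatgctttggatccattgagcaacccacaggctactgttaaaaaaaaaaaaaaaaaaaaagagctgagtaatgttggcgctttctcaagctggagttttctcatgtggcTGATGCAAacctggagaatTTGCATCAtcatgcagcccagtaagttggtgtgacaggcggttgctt
Slc16a1: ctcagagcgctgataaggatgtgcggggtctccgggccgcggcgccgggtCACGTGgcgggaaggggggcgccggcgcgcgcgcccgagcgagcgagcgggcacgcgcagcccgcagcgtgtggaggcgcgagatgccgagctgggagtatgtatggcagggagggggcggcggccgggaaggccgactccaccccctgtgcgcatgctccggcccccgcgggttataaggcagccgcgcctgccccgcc
Slc25a33: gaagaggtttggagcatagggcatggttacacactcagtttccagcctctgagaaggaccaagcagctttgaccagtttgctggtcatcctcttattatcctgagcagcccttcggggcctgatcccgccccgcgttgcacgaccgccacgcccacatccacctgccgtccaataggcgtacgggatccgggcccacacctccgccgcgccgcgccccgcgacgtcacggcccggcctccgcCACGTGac
Slc35a5: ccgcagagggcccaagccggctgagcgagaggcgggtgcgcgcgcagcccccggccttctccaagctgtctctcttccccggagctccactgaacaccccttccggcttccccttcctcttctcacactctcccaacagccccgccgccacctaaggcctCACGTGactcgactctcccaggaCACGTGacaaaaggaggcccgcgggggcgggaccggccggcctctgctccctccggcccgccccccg
Slc1a1: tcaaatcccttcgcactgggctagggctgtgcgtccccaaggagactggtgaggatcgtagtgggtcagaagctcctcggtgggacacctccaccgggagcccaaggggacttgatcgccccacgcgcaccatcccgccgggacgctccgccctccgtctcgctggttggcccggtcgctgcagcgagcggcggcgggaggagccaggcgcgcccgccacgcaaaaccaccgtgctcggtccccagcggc
Slc29a3: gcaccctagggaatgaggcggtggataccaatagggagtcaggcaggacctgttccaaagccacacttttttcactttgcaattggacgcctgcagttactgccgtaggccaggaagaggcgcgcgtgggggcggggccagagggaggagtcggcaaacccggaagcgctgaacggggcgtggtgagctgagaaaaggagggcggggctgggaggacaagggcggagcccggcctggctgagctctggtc

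Among the 12 sugar carriers, 8 rose, 3 fell and 1 was not called with CMA in WT, and the 3 that fell included both major glucose carriers of T cells. Slc2a3, the high-affinity glucose carrier GLUT3, had 1633, 1577 and 1609 CPM with DMSO and 804, 843 and 936 CPM with CMA. Its change was -0.90 ± 0.06 (SE, adjusted p = 1.14e-09), and the groups did not overlap. In STINGgt/gt it had 1272, 1417 and 1407 CPM with DMSO and 1074, 1221 and 1168 CPM with CMA, which also did not overlap but did not pass the test (adjusted p = 0.0597). This fall of 0.24 on the log2 scale was called in 7 of 19 other settings, DESeq2 among them, with adjusted p-values between 5.89e-04 and 0.254 over the 19. The WT change minus the STINGgt/gt change was -0.66 ± 0.09 (adjusted p = 5.86e-06). Slc2a1, the glucose carrier GLUT1, went from 468, 479 and 427 to 369.8, 397 and 385 CPM in WT, a log2 change of -0.25 ± 0.05 (adjusted p = 1.35e-04). The urate carrier Slc2a9 fell by 0.74 on the log2 scale, from a mean of 9.40 to 5.62 CPM.

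Each sugar carrier that rose was less abundant with DMSO than Slc2a3 and Slc2a1. Slc2a6, a lysosomal member of the glucose carrier family, had 8.45, 8.39 and 6.58 CPM with DMSO and 28.1, 30.5 and 28.8 CPM with CMA in WT, and the groups stood far apart. Its change was 1.92 ± 0.10 (adjusted p = 4.31e-11), and in STINGgt/gt it had 7.71 and 8.01 CPM. Slc5a3, a sodium and myo-inositol cotransporter, rose from 92.9 ± 13.6 (SD, n = 3) to 170.0 ± 12.8 CPM, with exons that overlap those of Mrps6. Slc45a4 rose by 0.80. All 4 members of the SLC37 family of sugar phosphate exchangers, looked at after their values were seen, rose by 0.23 to 0.79, among them the glucose 6-phosphate carrier of the endoplasmic reticulum, Slc37a4, by 0.52.

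Of the 27 amino acid carriers, 15 fell, 8 rose and 4 were not called in WT, and the steepest rise of all members was in this class. Slc1a1, a plasma membrane carrier of glutamate and cysteine, had 0.692, 0.436 and 0.756 CPM with DMSO and 38.1, 37.2 and 40.5 CPM with CMA. Its log2 change was 5.91 ± 0.14 (adjusted p = 2.25e-15), and all 3 libraries with CMA stood far above the other 9. The STINGgt/gt libraries had 1.08, 0.958 and 0.529 CPM with DMSO and 0.852, 0.769 and 0.831 CPM with CMA. The opposite-strand gene that its exons overlap is 4430402I18Rik. Slc38a2, an alanine and glutamine carrier, rose from 295, 278 and 319 to 401, 396 and 426 CPM, and the lysosomal glutamine carrier Slc38a7 rose by 0.43. The related Slc38a1 had 276 and 288 CPM and was not called (adjusted p = 0.372), but it was without WT DMSO replicate 3 (change 0.15, adjusted p = 0.0111).

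Slc7a5, Slc3a2 and Slc1a5, known from activated T cells, were lower. Slc7a5, the large neutral amino acid carrier LAT1, had 490.4, 501 and 499.8 CPM with DMSO and 224, 228 and 221 CPM with CMA in WT, a change of -1.15 ± 0.04 (adjusted p = 5.18e-13). In STINGgt/gt it had 516, 511 and 499 and then 523, 476 and 485 CPM, where the groups overlapped. Its partner chain Slc3a2 moved much less, from 301, 326 and 289 to 269, 277 and 267 CPM, and its change of -0.17 ± 0.05 was called in WT (adjusted p = 0.00561) while the difference from STINGgt/gt was not (adjusted p = 0.452). Slc1a5, the neutral amino acid carrier ASCT2, fell from 297, 345 and 264 to 188, 183 and 182 CPM, by 0.71 on the log2 scale. The arginine and lysine carriers Slc7a3 and Slc7a1 fell by 1.45 and 0.30, and the neutral amino acid carrier Slc43a1 fell by 1.38. Slc7a11, the cystine and glutamate exchanger, went from 4.08, 2.72 and 3.75 to 2.12, 1.79 and 1.92 CPM (adjusted p = 5.83e-05), and Slc38a3, a glutamine carrier of low level, fell by 1.65.

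Mitochondrial carriers were the largest class, with 20 lower, 13 higher and 5 not called among 38 in WT, and no member rose 2-fold. Slc25a5, which exchanges ADP for ATP, had 645, 648 and 667 CPM with DMSO and 332, 335 and 341 CPM with CMA in WT. The groups lay far apart, with a change of -0.96 ± 0.04 (adjusted p = 1.58e-12). In STINGgt/gt the values were 631, 618 and 601 CPM and 652, 629 and 621 CPM, and these overlapped. The other ADP/ATP carrier, Slc25a4, went from a mean of 157 to 143 CPM (adjusted p = 0.00855), a call that was lost with both other filters on low counts and when only the WT groups were fitted. The phosphate carrier Slc25a3, named after its values were seen, fell from 486, 504 and 467 to 399.6, 402 and 396 CPM.

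The steepest falls of the class were in Slc25a33, Slc25a30 and Slc25a32. Slc25a33, a carrier of pyrimidine nucleotides, had 13.6, 14.6 and 14 CPM with DMSO and 5.83, 4.72 and 4.60 CPM with CMA in WT, a change of -1.47 ± 0.08 (adjusted p = 8.55e-11). Slc25a30 and Slc25a32, the latter a carrier of folate and flavin adenine dinucleotide, fell by 1.10 and 1.01. Slc25a45, Slc25a22 and Slc25a38 had the largest rises. The glutamate carrier Slc25a22 went from 40.8, 47.2 and 36.5 to 70.1, 76 and 68 CPM, a change of 0.79 ± 0.08 (adjusted p = 3.01e-07). Slc25a45 rose by 0.85 and Slc25a38, a glycine carrier that serves haem synthesis, by 0.56. The citrate carrier Slc25a1 had a change of 0.15 ± 0.05 (adjusted p = 0.0202), and this call was lost without WT DMSO replicate 3, WT CMA replicate 1 or WT CMA replicate 2 and with plain library-size scaling, where the adjusted p-value was 0.0556 to 0.105.

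All 4 nucleoside carriers changed with CMA in WT, 3 of them downwards. Slc29a1, the equilibrative carrier ENT1 of the plasma membrane, had 92.7, 101 and 95.5 CPM with DMSO and 35.2, 35.9 and 37.3 CPM with CMA, a change of -1.42 ± 0.05 (adjusted p = 2.69e-13). In STINGgt/gt it moved the other way, from 144, 143 and 156 to 176, 174 and 179.9 CPM. This rise of 0.26 ± 0.05 was the 1 call among the members in STINGgt/gt (adjusted p = 0.0102), and it was lost without STINGgt/gt DMSO replicate 1, STINGgt/gt DMSO replicate 2 or STINGgt/gt CMA replicate 3 (adjusted p = 0.0614, 0.0778 and 0.0664). The call was also lost with a block on the first digit of the sample names, described below. The 4 groups did not overlap for this gene, from the WT libraries with CMA as the lowest to the STINGgt/gt libraries with CMA as the highest.

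The related Slc29a2 (ENT2) went from 3.71, 4.90 and 3.71 to 2.29, 2.59 and 1.83 CPM in WT, a fall by 0.87. The sodium-coupled purine nucleoside carrier Slc28a2 fell by 0.30. Slc29a3, the nucleoside carrier ENT3 of lysosomes, rose instead, from 36.2, 31.8 and 36.5 to 128, 118 and 117 CPM in WT with no overlap (change 1.80 ± 0.06, adjusted p = 7.55e-14). In STINGgt/gt Slc29a3 had 38.6, 40.5 and 38.5 and 39.9, 40.9 and 42.8 CPM.

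Of the 28 ion carriers, 16 fell, 9 rose and 3 were not called in WT, beside 37.4% lower and 33.0% higher among all genes. Slc9b2, a sodium and proton exchanger, had the steepest fall of all members, from 37.1, 40.3 and 35.8 CPM with DMSO to 3.74, 3.46 and 2.99 CPM with CMA. Its change was -3.47 ± 0.08 (adjusted p = 1.50e-15), and the 6 STINGgt/gt libraries stood between 37.3 and 43.8 CPM. Slc26a10 fell from 4.01, 4.83 and 2.58 to 0.753, 0.586 and 0.410 CPM and the sodium and dicarboxylate carrier Slc13a3 from 9.61, 8.15 and 7.34 to 1.73, 2.01 and 0.945 CPM. The sulphate carrier Slc26a2 rose from 26.4, 21.2 and 29.6 to 69.3, 68.2 and 71.3 CPM (change 1.43 ± 0.09, adjusted p = 2.49e-10). The proton exchanger Slc9a7, of the Golgi, rose by 0.96, while the sodium, potassium and chloride cotransporter Slc12a2 fell by 0.56. The phosphate carrier Slc20a1 had 77.9 and 80.9 CPM and was not called, except by limma on the deposited log2 values (change 0.10, adjusted p = 0.0400).

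Among 22 metal carriers, 7 rose, 9 fell and 6 were not called in WT. Slc39a10, a zinc importer and the most abundant of the class, named after its values were seen, had 324, 272 and 373 CPM with DMSO and 106, 102 and 103 CPM with CMA. The groups stood apart although the DMSO libraries spread widely, and the change was -1.64 ± 0.08 (adjusted p = 1.93e-11). Slc30a1, which exports zinc from the cell, rose from 2.22, 1.98 and 2.88 to 6.17, 5.89 and 5.80 CPM, by 1.31. The iron importer Slc11a2 fell from 44, 47.5 and 45 to 24.1, 23.1 and 24.5 CPM (change -0.93 ± 0.05). Slc11a1, the metal carrier of phagosomes in macrophages, rose from 0.291, 0.403 and 0.317 to 1.67, 1.48 and 1.45 CPM, a low level in every library. Myeloid markers summed to 57.4 to 64.5 CPM in WT with DMSO and 70.7 to 74.8 CPM with CMA. Of 6 tested markers Cst3 alone was higher and 3 were lower, and their part in the change of Slc11a1 was not tested.

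The 3 peptide carriers, which move short peptides and histidine across the plasma membrane or out of lysosomes, all rose in WT. Slc15a3 had 12.5, 12.4 and 11.4 CPM with DMSO and 83, 87.2 and 71.9 CPM with CMA in WT, and 5.57, 5.97 and 4.79 CPM followed by 4.95, 3.91 and 4.99 CPM in STINGgt/gt. The WT libraries with CMA stood far above all others, with a change of 2.75 ± 0.09 (adjusted p = 7.67e-14). Slc15a4, its lysosomal relative, rose by 0.52, and Slc15a2, named after its values were seen, by 0.52. The opposite-strand gene that the exons of Slc15a3 overlap is Tmem132a.

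Of 5 monocarboxylate carriers, Slc16a1, Slc16a6 and Slc16a10 fell, Slc16a3 rose and Slc16a13 was not called. Slc16a1 (MCT1), which moves lactate and pyruvate both ways, had 185, 175 and 200.2 CPM with DMSO and 111, 110.5 and 107 CPM with CMA in WT (change -0.77 ± 0.05, adjusted p = 6.00e-10). Slc16a3 (MCT4), the lactate exporter of glycolytic cells, had 478, 494 and 437 and then 538, 579 and 539 CPM, a change of 0.23 ± 0.05 (adjusted p = 7.84e-04). Slc16a6 fell by 1.23. Slc16a10, an aromatic amino acid carrier named after its values were seen, fell by 0.72.

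The SLC35 family, taken as the nucleotide sugar class by family number alone, numbered 7 higher, 10 lower and 5 not called in WT. The class name need not hold for each member. Slc35d3 had the steepest fall (25.6, 28.4 and 18.4 to 6.17, 5.86 and 5.36 CPM) and Slc35a5 the largest rise (21.4, 18.3 and 22.5 to 35.4, 34.9 and 34.6 CPM). Of 10 vitamin and cofactor carriers, 2 rose and 5 fell. Slc23a2, which imports ascorbate, rose from 39.8, 34.6 and 45.4 to 133, 133 and 151 CPM (change 1.79 ± 0.08, adjusted p = 5.83e-12). Both folate importers fell. Slc19a1, the reduced folate carrier, which is also known to import cyclic dinucleotides, went from 53.6, 55.2 and 51.9 to 20.5, 22.3 and 20.4 CPM (change -1.35 ± 0.05, adjusted p = 2.76e-13). In STINGgt/gt its values were 71, 72.9 and 71.5 CPM and 79.3, 78.5 and 79.6 CPM, which did not overlap but did not pass the test (adjusted p = 0.137). The proton-coupled folate carrier Slc46a1 fell by 1.29 from a low level of 1.19 CPM.

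Of 7 lipid and choline carriers, 3 rose, 1 fell and 3 were not called in WT. The choline carrier Slc44a1 had 22.9, 19.8 and 24.2 CPM with DMSO and 125, 125 and 125 CPM with CMA, a change of 2.48 ± 0.06 (adjusted p = 3.43e-15). The related Slc44a2 fell from 283 to 218 CPM. Among 13 carriers of organic ions and others, 2 rose and 6 fell. The vesicular glutamate carriers moved apart, Slc17a8 from 0.218, 0.302 and 0.293 to 6.83, 5.77 and 6.96 CPM and Slc17a6 from 36.9, 34.3 and 40.1 to 8.37, 7.44 and 7.19 CPM, with changes of 4.55 ± 0.20 and -2.27 ± 0.12. The taurine carrier Slc6a6, named after its values were seen, rose from 278, 251 and 293 to 382, 385 and 372 CPM. Of the 3 genes that are not carriers, Slc7a6os fell by 0.51 and the other 2 were not called.

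Read by family number, which groups carriers by sequence, members moved in both directions in most families of 4 or more. Among all genes tested 33.0% were higher and 37.4% lower, and whether any family differed from that was not tested. In SLC7, which holds the cationic amino acid carriers and the light chains of the paired exchangers, 7 of 9 members fell and 1 rose, the latter being Slc7a10, whose values are a description only (at most 2 reads in every library outside WT with CMA). The 5 members of SLC16 and the 4 each of SLC26 and SLC4, the latter mostly bicarbonate carriers, had 3 falls and 1 rise per family. In SLC38, the sodium-coupled neutral amino acid carriers, 4 of 7 rose and 2 fell, with changes from -1.65 to 0.46. The zinc exporters of SLC30 had 3 rises and 3 falls among 6, from -0.82 to 1.31, and the 12 carriers of SLC39, mostly zinc importers, had 3 rises and 4 falls, from -1.64 to 0.63.

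Several changes that the naming rule left out were picked after their values were seen. Slc7a10, a small neutral amino acid carrier, had 1 read in each WT library with DMSO and 2.29, 1.39 and 1.64 CPM with CMA in WT, where the libraries held 82, 45 and 52 reads. The 6 STINGgt/gt libraries held 0 to 2 reads. It was the 1 member that passed the filter on low counts only through a single group, WT with CMA, so that it had to differ, and its values are a description although it is among the 64 members counted as higher. Slc7a4 fell from 1.75, 2.08 and 1.12 to 0.335, 0.278 and 0.599 CPM, a low level throughout, and the vesicular glutamate carrier Slc17a7 fell from 1.82, 1.44 and 1.88 to 0.502, 0.586 and 0.819 CPM. In the SLC35 family Slc35f2 went from 23.3, 23.3 and 22.1 to 8.96, 8.15 and 7.69 CPM (change -1.46 ± 0.06, adjusted p = 3.12e-12) and Slc35g1 from 42.7, 39.9 and 43.1 to 16.2, 17.6 and 16.4 CPM. The CMP-sialic acid carrier Slc35a1 fell from 34.2, 40.3 and 37.5 to 18.6, 19.3 and 18.3 CPM. For these 3 genes the WT groups stood far apart, and in STINGgt/gt none was called. The endosomal proton exchanger Slc9a9 fell from 5.54, 5.17 and 4.90 to 2.26, 2.28 and 2.24 CPM, while the fatty acid carrier Slc27a1 rose from 5.83, 7.21 and 4.75 to 11, 12.4 and 12.1 CPM (change 1.01 ± 0.14, adjusted p = 5.04e-06).

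**Figure D3:**
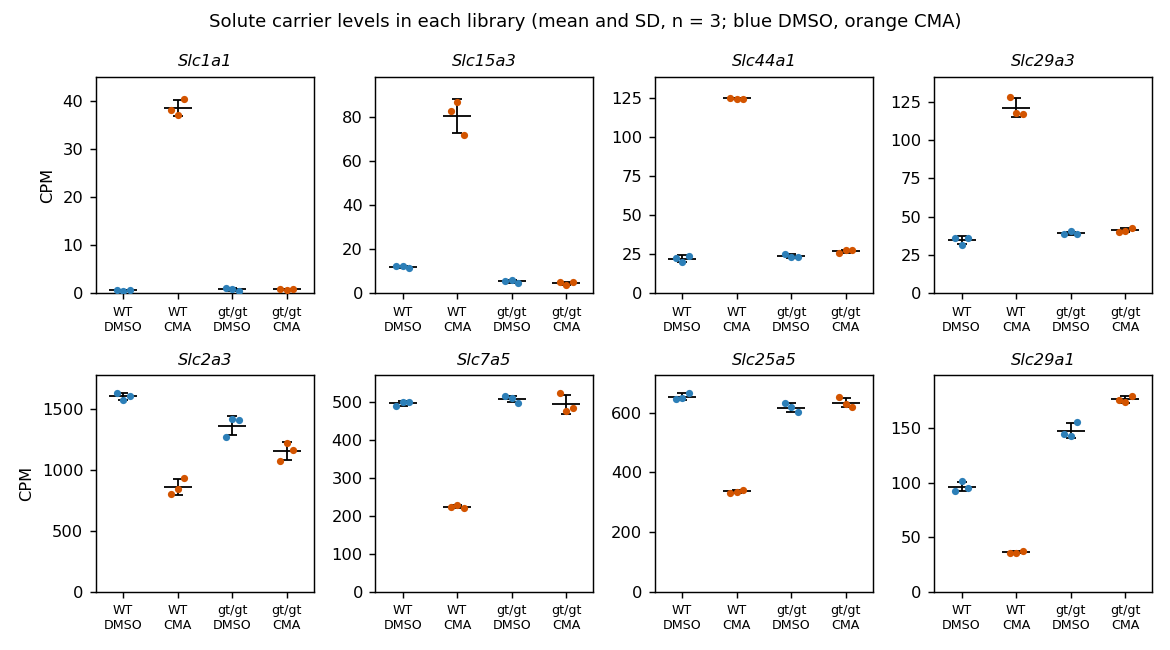
Level in CPM (vertical axis from 0) of 8 members in each library of the 4 groups, with the mean and SD (n = 3) in black, DMSO in blue and CMA in orange. Slc1a1, Slc15a3, Slc44a1 and Slc29a3 were high only in the 3 WT libraries with CMA, whereas Slc2a3, Slc7a5, Slc25a5 and Slc29a1 were lowest in them.

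The comparison of the CMA effect between genotypes asks which changes differed in size. It was fitted as the log2 change in WT minus that in STINGgt/gt. A called difference does not by itself show that a response needed STING. In this test 59 members had a higher and 83 a lower change in WT, together 73.2% of members beside 58.8% of all genes and 64.3% of the genes of the deposited table. Of the 64 members that rose in WT, 57 were called different in the same direction and 7 were not. Of the 92 that fell, 82 were called different and 10 were not. Over all genes tested 182 were called in STINGgt/gt, so most genes called in WT could be called different. The matching share over all genes called in WT was not computed, and the counts are not a result about carriers. In STINGgt/gt 193 members were not called, and 34 of the 194 (17.5%) had an unadjusted p-value under 0.05, with changes between -0.44 and 0.26, as had 1790 of all 13811 genes tested. DESeq2 called 1 higher and 2 lower, and limma on the deposited log2 values called 1 higher and 0 lower. For Slc29a1, called in opposite directions in the genotypes, the difference was -1.67 ± 0.07 (adjusted p = 5.15e-12).

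Each difference contains the WT change, so the sizes of both are tied by construction. The differences reached 6.01 ± 0.31 for Slc1a1, 3.00 ± 0.15 for Slc15a3 and -3.60 ± 0.10 for Slc9b2, each with adjusted p at or below 9.92e-11. Slc4a11, Slc41a2, Slc3a2 and Slc25a27 were called lower in WT without a called difference, and the WT call of Slc25a27 was lost in 11 of 19 other settings, with adjusted p-values up to 0.193. Slc4a11 had changes of -0.32 in WT and -0.28 in STINGgt/gt, and a difference of -0.04 ± 0.15 (adjusted p = 0.835). The difference for Slc2a1 was called (adjusted p = 0.0460) but lost its call in 14 of 18 other settings, 10 of them the omission of a single library, with adjusted p-values up to 0.146.

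**Figure D4:**
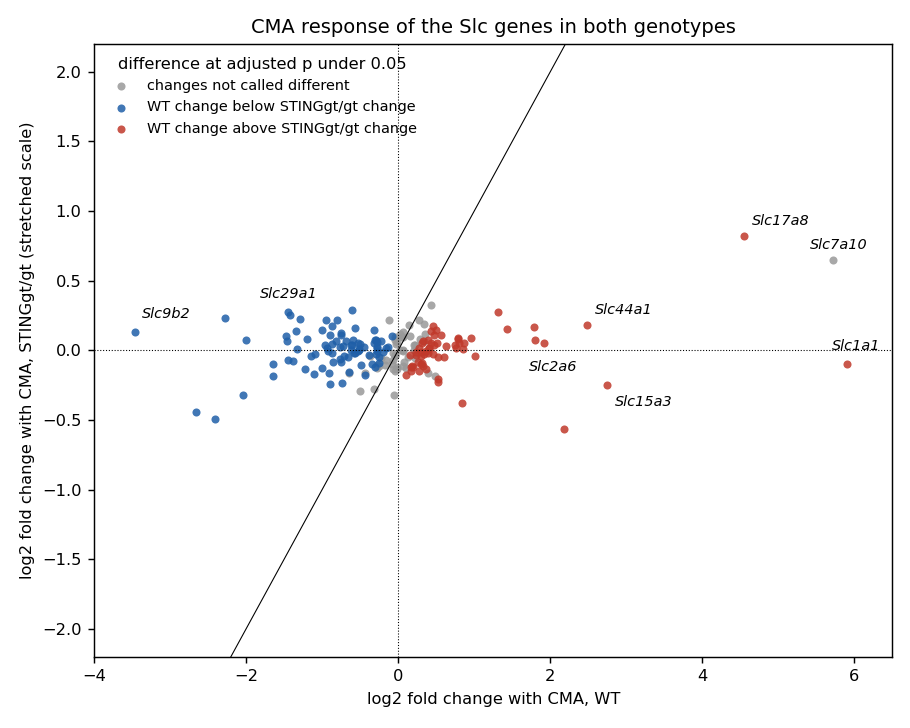
Log2 fold change with CMA in WT (horizontal axis) and in STINGgt/gt T cells (vertical axis, on a stretched scale) for the 194 members, coloured by the edgeR test of the difference, with the line of equal change in black. WT changes ran from -3.47 to 5.91 and STINGgt/gt changes from -0.56 to 0.82.

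With DMSO alone the genotypes also differed. In WT 63 members were higher and 48 lower than in STINGgt/gt, together 57.2% of members beside 42.7% of all genes and 45.7% of those of the deposited table. At least 2-fold, 12 were higher and 1 was lower, beside 5.73% and 1.56% of all genes. Slc38a3 had 3.86, 3.89 and 3.34 CPM in WT and 0.541, 0.712 and 0.591 CPM in STINGgt/gt, a difference of 2.57 ± 0.17 (adjusted p = 5.31e-09). Slc13a3 had 9.61, 8.15 and 7.34 against 1.83, 1.15 and 1.21 CPM, and Slc4a11 had 43.7, 46.2 and 39.3 against 12, 11.9 and 10.7 CPM. The magnesium carrier Slc41a2 was higher by 1.69 ± 0.12. None of these 4 genes overlapped between the genotypes. Picked after their values were seen, the arginine carrier Slc7a2 had 2.11, 1.78 and 1.24 against 0.283, 0.164 and 0.249 CPM, the widest ratio of all members but on few reads, and the zinc importers Slc39a14 and Slc39a8 had 88.4, 76.8 and 87.9 against 52.2, 53.7 and 50.5 CPM and 23.4, 24.2 and 29 against 15, 16.7 and 15.9 CPM. These 2 importers were not called with CMA in WT, although without WT DMSO replicate 3 Slc39a8 was (change 0.22, adjusted p = 0.00754).

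Lower in WT were Slc14a1, the urea carrier, with 2.77, 2.15 and 2.19 CPM against 8.43, 8.24 and 8.78 CPM (difference -1.85 ± 0.14, adjusted p = 2.29e-08), Slc25a27 by 0.71, and the glycine carrier Slc6a9 with 26.7, 30.9 and 26.7 against 45.7, 46.7 and 43.7 CPM. Slc1a5 had 297, 345 and 264 CPM in WT and 474, 481 and 479 CPM in STINGgt/gt, a difference of -0.66 ± 0.07, so that CMA lowered it in WT from a level already below that of STINGgt/gt. By class, 9 of 22 metal carriers and all 3 peptide carriers were higher in WT, 2 metal carriers were lower, and 3 of 4 nucleoside carriers were lower, beside 22.9% higher and 19.8% lower among all genes. Whether classes differed from other genes was not tested. In this comparison 6 of 6 B-cell markers, 6 of 6 tested myeloid markers, 5 of 6 markers of CD8 T and natural killer cells and 3 of 3 tested erythroid markers were higher in WT, and 2 of 6 T-cell markers were lower. Their part in the differences of the carriers was not tested.

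**Figure D5:**
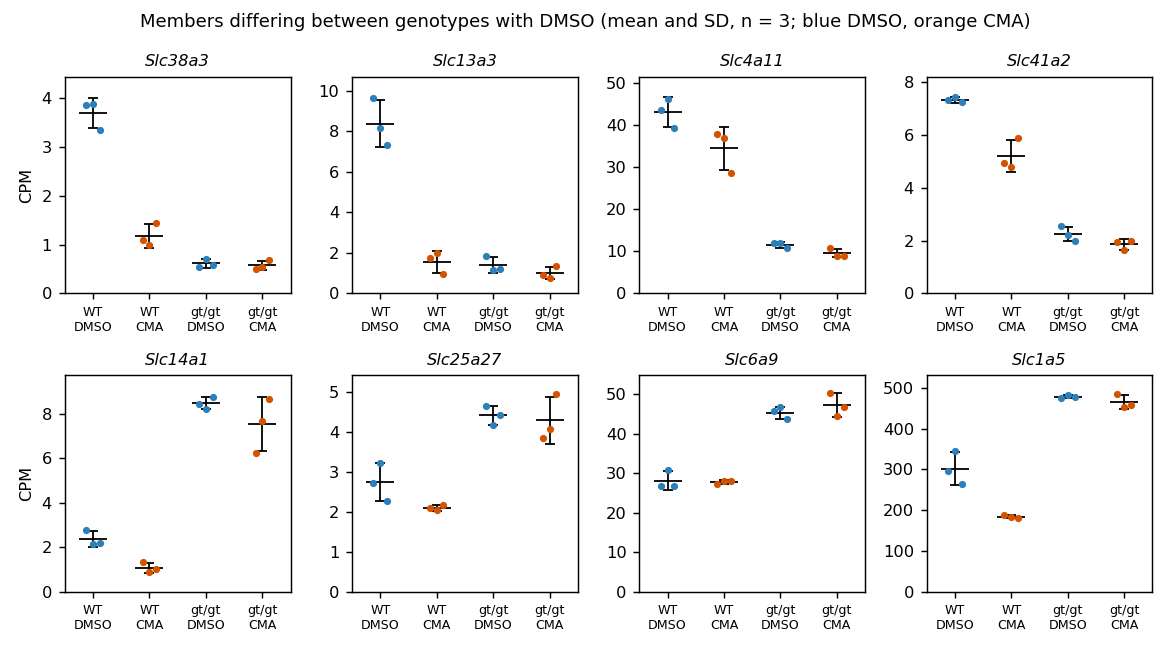
Level in CPM (vertical axis from 0) of the 4 members with the largest positive and the 4 with the largest negative difference between WT and STINGgt/gt with DMSO, among those called and with a mean count of at least 50, in each library of the 4 groups, with the mean and SD (n = 3) in black. Slc38a3, Slc13a3, Slc4a11 and Slc41a2 were higher and Slc14a1, Slc25a27, Slc6a9 and Slc1a5 lower in each WT library with DMSO than in the STINGgt/gt libraries with DMSO.

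Genes outside the family that act with carriers were taken from a list of 21, of which 20 were found by symbol and tested. In WT 6 rose, 10 fell and 4 were not called. Arrdc4 and Txnip, arrestins that lower glucose uptake by removing glucose carriers from the cell surface, both rose. Arrdc4 had 1.38, 1.11 and 0.975 CPM with DMSO and 28.5, 28.5 and 30.7 CPM with CMA in WT, and between 1.93 and 2.83 CPM in the STINGgt/gt libraries (WT change 4.68 ± 0.13, adjusted p = 1.11e-14). Txnip went from 82.2, 75 and 72.8 to 109, 111 and 120.3 CPM. The hexokinase Hk2 rose by 0.30, Bsg, the chaperone of monocarboxylate carriers, was not called in WT (change 0.07, adjusted p = 0.211), and the mitochondrial pyruvate carrier subunit Mpc2 fell by 0.56 while Mpc1 was not called.

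Of the metal-responsive genes of the list, the metallothioneins Mt1 and Mt2 fell in WT, Mt1 from 27.3, 29.7 and 22.3 to 6.58, 7.10 and 7.03 CPM, beside 6.02 to 7.69 CPM in the STINGgt/gt libraries. The transferrin receptor Tfrc fell by 0.37. The mitochondrial outer membrane channels Vdac1, Vdac2 and Vdac3 fell by 0.58, 0.56 and 0.26, and the phosphate exporter Xpr1 by 0.61. Of the regulators, Atf4, which drives amino acid carrier genes under stress, fell from 394, 429.6 and 395 to 324, 324 and 322 CPM, and Myc rose from 329, 326 and 297 to 486, 524 and 483 CPM. The organic anion carriers Slco3a1 and Slco4a1 moved apart in WT, by 1.36 and -0.27, and Slco4a1 was the 1 gene of the list called in STINGgt/gt (change 0.21, adjusted p = 0.0478).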

How the data were processed

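RNA-seq libraries of T cells were made from mRNA with a stranded kit in 4 groups of 3. Per the submitters' processing notes the tools were cutadapt 1.3, STAR 2.4.0f1, HTSeq 0.6.1 and RSEM 1.2.16 and the build GRCm38. The strand setting is not given in the sources used here. The authors deposited raw read counts per gene for each library, which were used for all tests, and a table of log2 normalised expression values of 11921 genes, which the authors had filtered and which set the membership.

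Counts were fitted with edgeR 4.0.16 (R 4.3.3, TMM scaling, filterByExpr, quasi-likelihood test, all 4 groups in a single fit), with Benjamini-Hochberg adjustment over 13811 genes. Reads on no feature (4.86 to 7.16% per library), ambiguous reads and reads with several alignments were left out of the library sizes. On simulated counts for 13574 genes with 200 changed by 1.5-, 2- or 4-fold in WT with CMA, edgeR recovered 195 and made 15 false calls. A response as broad as that of WT, where 70.4% of genes were called, and smaller changes were not simulated. Nor were the difference of the effects and the comparison of genotypes checked in this way. Compared were CMA and DMSO within WT and within STINGgt/gt, these effects with each other, and both genotypes after DMSO. Alternatives were DESeq2 1.42.0, limma 3.58.1 on the log2 values, other scaling, filters and fits, a 2-fold minimum and the omission of each library.

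The members and lists were chosen with earlier results of these data known. Named are a list by role in T cells, the members with the largest rises and falls per class in WT (adjusted p under 0.05, a mean count of at least 50, groups that do not overlap), those called in STINGgt/gt, and the 4 with the largest difference in each direction between genotypes. For the rises and falls, ions and metals were taken as a joint class, and the lack of overlap in WT follows from the rule. Slc39a10, Slc25a3 and Slc6a6, and others where so stated, were added after their values were seen. One gene of the list by role is not reported here. Replicate libraries of a group differed by more than sampling noise. The study calls the libraries biological replicates, and the labels do not say whether they were separate animals. Precision was limited by 3 libraries a group.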

Additional observations from a re-analysis of the deposited data

Results flagged for a closer look

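For 68 of the 79 members named by rule or described after their values were seen, the CMA effect was not the same in WT as in STINGgt/gt by edgeR's test of the difference, the log2 change in WT minus that in STINGgt/gt, with adjusted p-values under 0.05. Most of these members were named for a large change in WT or after their values were seen, so the choice favoured a called difference and the count says nothing more about the members. Over all members the share called was 73.2% and over all genes tested 58.8%. The differences are listed by class, and their causes were not tested.

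Among sugar carriers, the difference was 1.86 for Slc2a6, 0.82 for Slc5a3, 0.75 for Slc45a4 and 0.75 for Slc37a4 on the side of a higher change in WT, and -0.66 for Slc2a3, -0.50 for Slc2a9 and -0.16 for Slc2a1 on the side of a lower change. Among amino acid carriers, the difference was 6.01 for Slc1a1, 0.38 for Slc38a7 and 0.28 for Slc38a2 on the side of a higher change in WT, and -2.07 for Slc7a4, -1.55 for Slc38a3, -1.38 for Slc7a3, -1.31 for Slc43a1, -1.11 for Slc7a5, -0.77 for Slc7a11, -0.67 for Slc1a5 and -0.37 for Slc7a1 on the side of a lower change. Among mitochondrial carriers, the difference was 0.84 for Slc25a45, 0.69 for Slc25a22, 0.45 for Slc25a38 and 0.18 for Slc25a1 on the side of a higher change in WT, and -1.58 for Slc25a33, -1.15 for Slc25a32, -1.07 for Slc25a30, -1.0 for Slc25a5, -0.30 for Slc25a3 and -0.16 for Slc25a4 on the side of a lower change. Among ion carriers, the difference was 1.28 for Slc26a2 and 0.87 for Slc9a7 on the side of a higher change in WT, and -3.60 for Slc9b2, -2.21 for Slc26a10, -1.91 for Slc13a3, -1.28 for Slc9a9 and -0.72 for Slc12a2 on the side of a lower change. Among metal carriers, the difference was 2.74 for Slc11a1, 1.03 for Slc30a1 and 0.28 for Slc39a8 on the side of a higher change in WT, and -1.46 for Slc39a10 and -0.95 for Slc11a2 on the side of a lower change. Among nucleoside carriers, the difference was 1.72 for Slc29a3 on the side of a higher change in WT, and -1.67 for Slc29a1, -1.04 for Slc29a2 and -0.19 for Slc28a2 on the side of a lower change. Among the remaining classes, the difference was 3.73 for Slc17a8, 3.00 for Slc15a3, 2.30 for Slc44a1, 1.62 for Slc23a2, 1.05 for Slc27a1, 0.73 for Slc15a2, 0.71 for Slc35a5, 0.46 for Slc15a4, 0.36 for Slc6a6 and 0.27 for Slc16a3 on the side of a higher change in WT, and -2.51 for Slc17a6, -1.72 for Slc35d3, -1.72 for Slc17a7, -1.53 for Slc35f2, -1.52 for Slc46a1, -1.49 for Slc19a1, -1.34 for Slc35g1, -1.10 for Slc16a6, -0.94 for Slc14a1, -0.87 for Slc35a1, -0.79 for Slc16a1, -0.75 for Slc16a10, -0.51 for Slc7a6os and -0.35 for Slc44a2 on the side of a lower change. The calls for Slc25a1, Slc25a4, Slc28a2, Slc2a1 and Slc39a8 were each lost in at least 9 of 18 other settings. The call for Slc15a2 was lost on leaving out WT CMA replicate 3, STINGgt/gt DMSO replicate 1 or STINGgt/gt CMA replicate 1 (adjusted p = 0.0604 to 0.0637). No group had more than 3 libraries, so single values were not screened for standing apart. In a chi-square comparison of read counts over genes, WT DMSO replicates 2 and 3 differed most (28.6 per degree of freedom, against 2.57 to 9.58 for the other pairs within groups).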

How the results depend on the processing

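The 79 members named by rule or after their values were seen kept their direction wherever they were called, and over 5819 combinations of a named change and another setting 5626 stayed on the same side of the threshold, 138 lost and 55 gained a call. Plain library-size scaling, DESeq2, limma on the deposited log2 values, both other filters on low counts and the fit of only the groups compared kept the counts of calls in WT, for the difference and between genotypes within 1.5 times. A minimum change of 2-fold left 12 rises and 23 falls for WT, 12 positive and 26 negative differences of the effects, 12 and 1 by genotype with DMSO, and 0 rises for STINGgt/gt. In STINGgt/gt, where 1 member was higher and 0 lower, the counts were 3 and 4 with no filter and 4 and 6 with only those groups fitted, and DESeq2 called 2 lower. Leaving out each library in turn gave 0 to 3 higher and 0 to 4 lower there. Leaving out WT DMSO replicate 2 (3 and 4) or WT DMSO replicate 3 (2 and 3) raised the counts most, and without STINGgt/gt DMSO replicate 1, STINGgt/gt DMSO replicate 2 or STINGgt/gt CMA replicate 3 the member that rose was lost. The cause was not tested.

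Samples with the same replicate number were not taken as pairs in the main fit. Their deviations correlated by 0.00195, 0.104 and 0.132 (WT) or 0.0634, 0.0597 and 0.0585 (STINGgt/gt). Samples with different numbers correlated by -0.150 to 0.0560 (WT) and -0.0610 to 0.00346 (STINGgt/gt). All same-numbered values but that of WT replicate 1 lay above these ranges, so a pairing cannot be set aside, and fits with a block are given. Fitting the replicate number as a block gave 65 rises and 92 falls among WT members, 2 rises and 3 falls among those of STINGgt/gt, and 60 and 83 called differences of the CMA effect. In the labels the sample names of same-numbered DMSO and CMA libraries begin with the same digit, except for replicate 2 of STINGgt/gt, and what the digit stands for is not stated. A block on that digit, chosen after seeing the data, gave 63 rises and 91 falls for WT, 0 and 0 for STINGgt/gt, and 54 and 76 called differences. The block could not be fitted for the comparison of genotypes, nor the fit of only the groups compared for the difference. Members under a few CPM, such as Slc11a1 and Slc17a8, rest on few reads.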
